A study of Mus musculus with 14 samples.

Results

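TRIM genes are the genes whose symbol begins with Trim and a number. They were read on Affymetrix Mouse Gene 1.0 ST arrays of splenic CD4+ T cells held in interferon alpha together with a JAK inhibitor. Of 19752 gene symbols with a probe set of their own, 59 were TRIM genes, each with 1 such probe set. Of these, 37 (62.7%) reached the 40th percentile of mean log2 intensity over the single-symbol probe sets (6.29), as did 59.5% of all symbols, and these 37 were tested and are described. The 22 below that level included Trim50 (mean 6.27), Trim80 (6.15) and Trim66 (6.11) just under it, and Trim58 (6.38), Trim67 (6.47) and Trim45 (6.49) lay just above it.

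All cells came from male C57BL/6 mice 6 weeks old, were isolated by negative selection, were activated for 48 h with beads against CD3 and CD28, and were then kept in interferon alpha at 100 U/ml with 1 inhibitor at its IC80, the dose giving 80% inhibition, for 2 h or 8 h. The 7 inhibitors are named by their labelled target: JAK1 (IFN.3404), JAK1/2 (IFN.6221), PAN (IFN.6222), TYK2 (IFN.2485), JAK2 (IFN.3885) and 2 JAK3 inhibitors (IFN.6226 and IFN.6228). Each inhibitor had 1 array at each time, 14 in all. Nothing states whether arrays share mice or cultures, so no p-value rests on repeated cultures. Those between groups of inhibitors rest on the spread between inhibitors. Those for time and for single inhibitors rest on how the inhibitors differ in their change from 2 h to 8 h. Untreated cells and cells given interferon alone are not analysed here, so each inhibitor is set only against other inhibitors. The question behind the series is how JAK blockade alters the response of CD4+ T cells to interferon alpha.

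TRIM proteins share a RING domain, B-boxes and a coiled coil, and most act as E3 ubiquitin ligases. Many of their genes are induced by type I interferon, which signals through a receptor carrying JAK1 and TYK2 to the transcription factor ISGF3. Several TRIM proteins restrict viruses directly or tune the sensors that detect viral RNA and DNA. The mouse has expanded part of the family. Among protein-coding genes of RefSeq, Trim6, Trim34a, Trim5, Trim12a, Trim34b, Trim12c, Trim30b, Trim30c, Trim30a and Trim30d lie in a single run on chromosome 7. Only Gm38525 interrupts it, and genes of other types were not looked at. Trim21 and Trim68 lie apart from that run on the same chromosome, each among olfactory receptor genes. Several genes of the run are near-identical copies, so their probe sets may read each other's RNA, which was not examined. A further 6 probe sets that carry a Trim symbol together with other symbols were not used.

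The short stretches of promoter that hold the core of an interferon response element are shown because they were found in most TRIM genes that differed by inhibitor class at 2 h and in few of the others. The core was searched as GAAANNGAA on both strands, in the RefSeq windows of GRCm38.p6 that run from 250 bases before to 50 after a gene start. Each line is 29 bases, with the matched bases in capitals. The source sequences were taken to run in the direction of the gene, which their source does not state. Strands, base positions and coordinates of the matches rest on this. Read so, all lines but that of Trim21 match on the opposite strand. Both matches in Trim21 overlap, as do both in Trim26.
Trim21, chr7:102565448-102565476, minus strand: ctgagagGAAACTGAAAGTGAAatttgga
Trim12a, chr7:104315466-104315494, minus strand: gagttgtggtTTCTGTTTCatttccagag
Trim12c, chr7:104353359-104353387, minus strand: gagttgtggtTTCTGTTTCatttccagct
Trim34a, chr7:104244458-104244486, plus strand: ggtttggagtTTCAGTTTCttttctctgc
Trim30a, chr7:104446104-104446132, minus strand: tgtttttagtTTCTTTTTCtcagttcctg
Trim30a, a second start, chr7:104465210-104465238, minus strand: gttctttagtTTCTTTTTCtcagttcctg
Trim30d, chr7:104507871-104507899, minus strand: gttctttagtTTCTTTTTCtcagttcctg
Trim25, chr11:88999384-88999412, plus strand: gcccctcctgTTCAGTTTCgattccttcc
Trim26, chr17:36836980-36837008, plus strand: ttccgatTTCACTTTCCTTTTCtcgggcc

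Of the 37 tested genes, 29 had a promoter window in the table (Trim3, Trim8, Trim11, Trim14, Trim16, Trim33, Trim35 and Trim65 did not). The core was found in 7 of the 8 genes with a window that were lower by class at 2 h (87.5%), Trim56 being the exception. It was found in 1 of the other 21 (4.76%), which was Trim26. Over all genes of the table the share was 9.76% (2638 of 27025). The matches lay close to the gene start, from base -40 to base 28, except in Trim26, where they lay from base -159 to base -145. The genes are not independent, since paralogs share sequence: the stretches of Trim12a and Trim12c were identical at 27 of 29 bases, and that of Trim30d was identical at all 29 to the second start of Trim30a. A STAT dimer core, searched as TTCNNNGAA on both strands, was found in 0 of the 8 genes, in 2 of the other 21 (Trim45 and Trim46) and in 9.55% of all genes. A match describes letters and not binding, which was not measured.

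**Figure D1:**
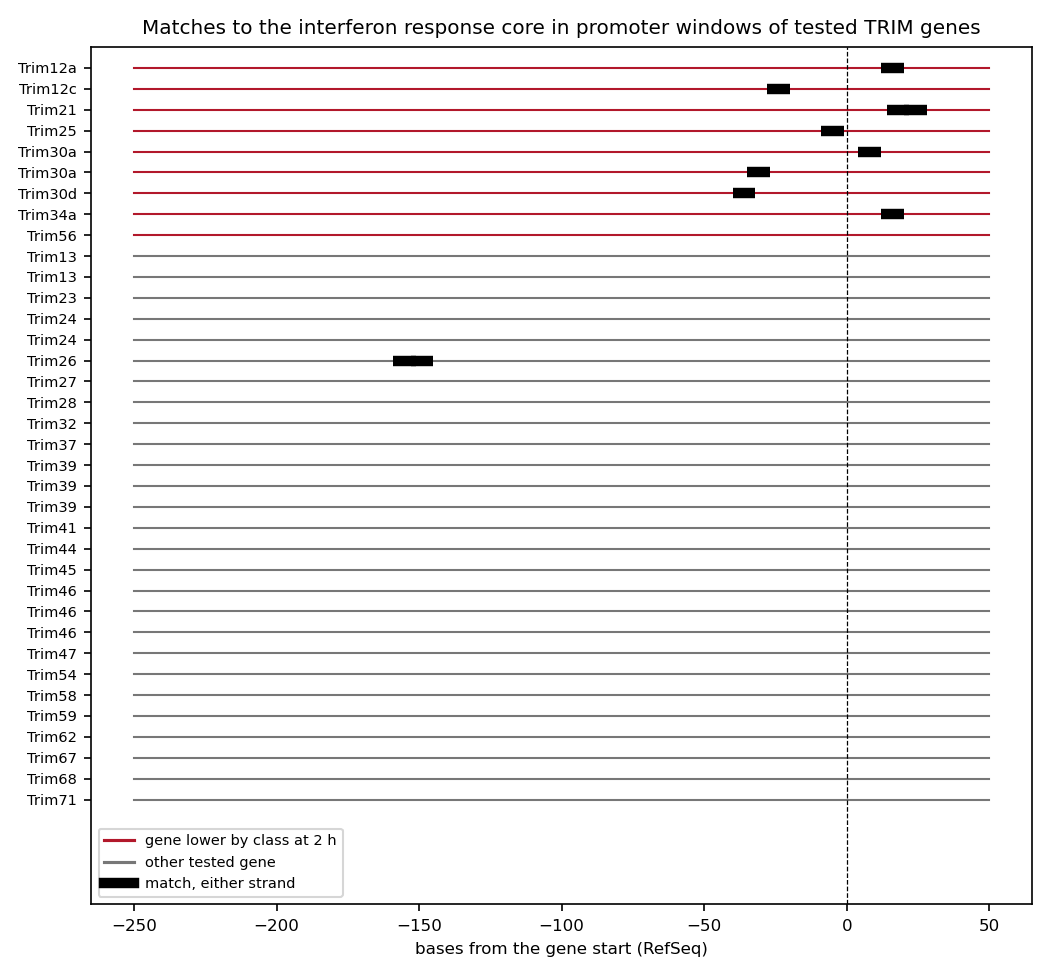
Promoter windows of the tested TRIM genes with a RefSeq window, drawn from 250 bases before to 50 after the gene start (dashed line), with matches to the interferon response core on either strand as black bars. Red windows belong to genes lower by class at 2 h, of which 7 of 8 hold a match, against 1 of the other 21; a gene with several starts has several lines.

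The arrays resembled each other, and 1 stood apart. Mean Pearson r of an array with the others of its time was at least 0.988, except for the JAK1 inhibitor at 8 h (0.978), whose upper quartile of intensity was also the lowest (398, against 427 to 497 on the other arrays). CD4 T cell markers were bright throughout (mean log2 11.53 to 11.94 over 4 genes). The markers of granulocytes (5.03 to 5.58), NK cells (5.15 to 5.73) and macrophages or dendritic cells (6.21 to 6.54) averaged below or near the 40th percentile. Single genes of the last 2 lists, Gzma for NK cells and Ctss and Lyz2 for macrophages or dendritic cells, did reach it and were tested. B cell markers were at 8.39 to 9.14 and CD8 markers at 7.59 to 8.16. A list of 14 skeletal muscle genes, which an earlier analysis wrote after seeing these data, averaged 6.26 to 7.16 and was highest in both JAK1/2 arrays and the 8 h JAK1 array. Counts of calls that involve that last array are given with and without it. For the JAK1 inhibitor against the others only differences are given without it, since 1 array of that inhibitor is left. In bulk RNA, fewer cells of a type and less RNA per cell cannot be told apart.

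At 2 h, a group of antiviral TRIM genes was lower with inhibitors that name JAK1 or TYK2 (JAK1, JAK1/2, TYK2 and PAN, taken to include JAK1) than with those that name only JAK2 or JAK3. By limma with Benjamini-Hochberg adjustment over 11761 genes, 9 of 37 TRIM genes (24.3%) were lower in the first class, against 0.697% of all genes, and 0 were higher. The 9 were Trim12a, Trim12c, Trim21, Trim30a, Trim30d and Trim34a of chromosome 7, and Trim14, Trim25 and Trim56, which act in the sensing of viral nucleic acid. The median difference was -0.02 over the 37 genes and 0.01 over all genes. In 10 TRIM genes, these 9 and Trim26, every array of the first class lay below every array of the second, a pattern found in 3.15% of all genes. In the same comparison the macrophage or dendritic cell markers Ctss and Lyz2 were at -0.37 (adjusted p = 0.106) and -0.26 (adjusted p = 0.995). The NK cell marker Gzma was at -0.14 (adjusted p = 0.995). None of these markers passed, and their part in the TRIM differences was not tested.

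**Figure D2:**
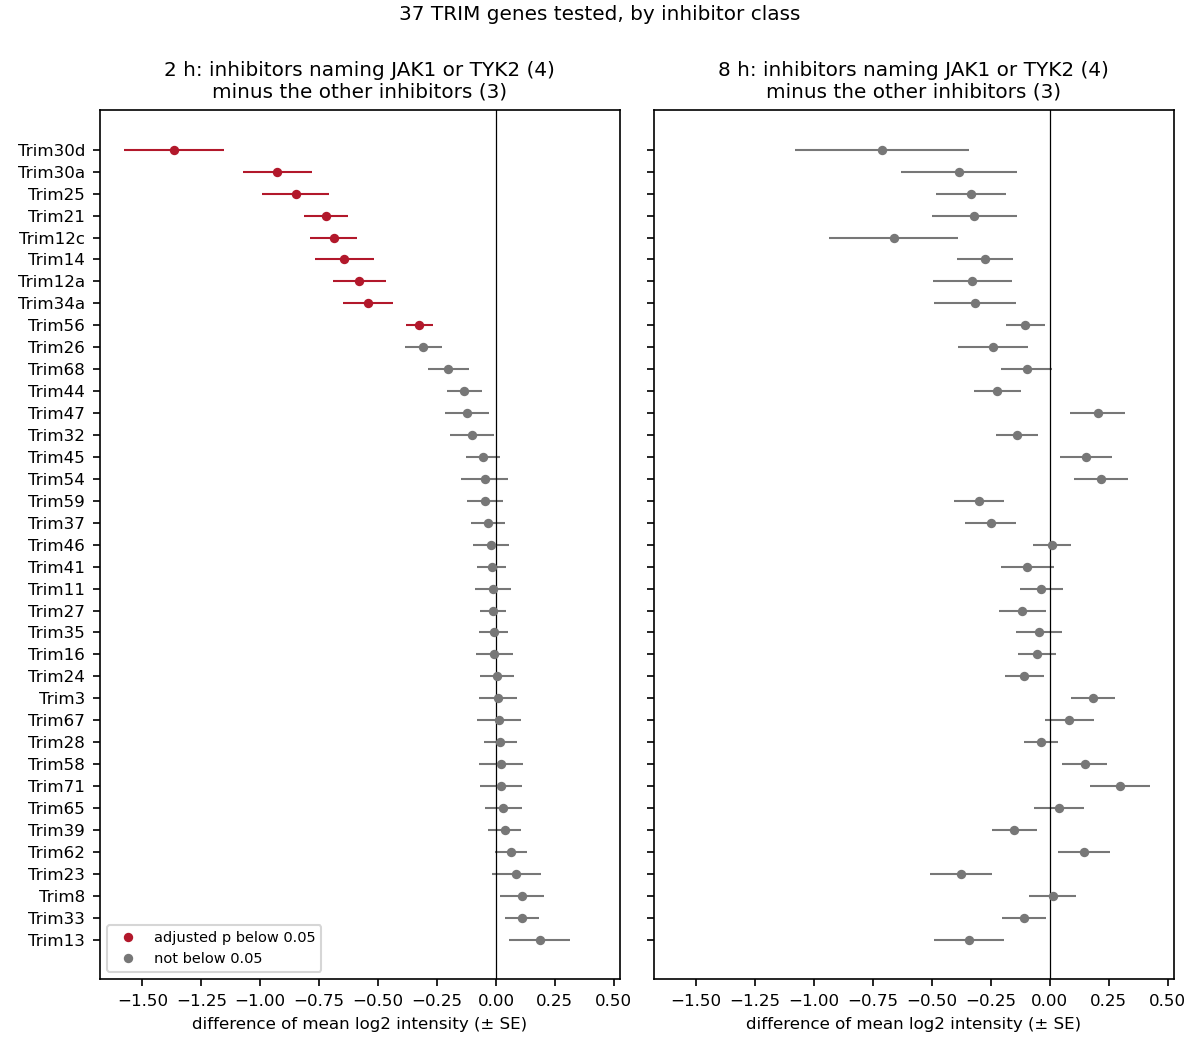
Difference of mean log2 intensity between the 4 inhibitors that name JAK1 or TYK2 and the other 3, with its standard error, for 37 TRIM genes at 2 h (left) and 8 h (right). Red points have a limma adjusted p below 0.05: 9 genes at 2 h, from -0.32 to -1.37, and 0 at 8 h.

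Trim30d and Trim30a belong to a rodent expansion, and the protein of Trim30a restrains signalling to NF-kB. Trim30d (probe set 10566366) had the widest range over 14 arrays of the 37 genes (2.74 log2 units). At 2 h its log2 intensity was 8.09 with JAK1, 8.98 with JAK1/2, 9.18 with PAN and 9.27 with TYK2, and 10.27 with JAK2, 10.11 with IFN.6226 and 10.37 with IFN.6228. The classes were separated by a gap, and the JAK1 inhibitor lay well below the rest of its class. The difference of means was -1.37 (SE 0.21, n = 4 and 3, adjusted p = 0.00739), or 2.58-fold. At 8 h the values were 8.67 with JAK1, 10.51 with JAK1/2, 10.62 with PAN and 10.54 with TYK2, and 10.78, 10.79 and 10.83 with JAK2, IFN.6226 and IFN.6228. By then JAK1/2, PAN and TYK2 lay just under the second class, and JAK1 alone remained far below.

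Trim30a (probe set 10566358) ranked the 7 inhibitors at 2 h in the same order. At 2 h it read 10.77 with JAK1, 11.34 with JAK1/2, 11.55 with PAN and 11.59 with TYK2, against 12.24 with JAK2, 12.19 with IFN.6226 and 12.30 with IFN.6228. The difference was -0.93 (SE 0.15, adjusted p = 0.00827). At 8 h JAK1 gave 11.30, while JAK1/2, PAN and TYK2 gave 12.55, 12.57 and 12.51, and JAK2, IFN.6226 and IFN.6228 gave 12.51, 12.63 and 12.71. The classes overlapped at 8 h, with JAK1 the single low array.

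Trim12a and Trim12c are mouse relatives of TRIM5, the retroviral restriction factor of primates. Trim12c (probe set 10566346) read 8.26 with JAK1, 8.33 with JAK1/2, 8.69 with PAN and 8.49 with TYK2 at 2 h, and 9.05, 9.08 and 9.27 with JAK2, IFN.6226 and IFN.6228. The difference was -0.69 (SE 0.10, adjusted p = 0.00442). At 8 h it read 8.19 with JAK1, 9.36 with JAK1/2, 9.59 with PAN and 9.67 with TYK2, and 9.82, 9.80 and 9.98 with the others in the same order. The classes still did not overlap at 8 h, and Trim12c was the only gene of the 9 whose JAK1 array was lower at 8 h than at 2 h.

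Trim12a (probe set 10566326) read 9.39 with JAK1, 9.76 with JAK1/2, 9.99 with PAN and 9.82 with TYK2 at 2 h, and 10.22, 10.30 and 10.44 with JAK2, IFN.6226 and IFN.6228. The difference was -0.58 (SE 0.11, adjusted p = 0.0309). At 8 h JAK1 gave 9.77, the other 3 of its class 10.51, 10.53 and 10.56, and JAK2, IFN.6226 and IFN.6228 gave 10.56, 10.77 and 10.68. TYK2 and JAK2 were then level, and JAK1 remained low.

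Trim34a (probe set 10555862), the neighbour of Trim5 and Trim6 in RefSeq, read 8.02 with JAK1, 8.42 with JAK1/2, 8.56 with PAN and 8.33 with TYK2 at 2 h, and 8.85, 8.83 and 8.94 with JAK2, IFN.6226 and IFN.6228. The difference was -0.54 (SE 0.11, adjusted p = 0.0338). At 8 h it read 8.40 with JAK1, 9.26 with JAK1/2, 9.16 with PAN and 9.15 with TYK2, and 9.30, 9.38 and 9.25 with the others. JAK1/2 then lay inside the range of the second class.

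Trim21 (probe set 10566144), a cytosolic receptor for antibody bound to virus, had the smallest p of the family at 2 h. Its 2 h values were 8.79 with JAK1, 9.15 with JAK1/2, 9.18 with PAN and 9.17 with TYK2, and 9.74, 9.83 and 9.81 with JAK2, IFN.6226 and IFN.6228. The difference was -0.72 (SE 0.09, adjusted p = 0.0019), or 1.65-fold. JAK1/2, PAN and TYK2 were nearly level, with JAK1 below them. At 8 h JAK1 had 8.84, JAK1/2 9.53, PAN 9.76 and TYK2 9.67, against 9.80, 9.82 and 9.69 with the others, so PAN lay within the second class and JAK1 was at nearly its 2 h level. Trim68, which like Trim21 lies among olfactory receptor genes outside the run, had a difference of -0.20 at 2 h (SE 0.09, adjusted p = 0.995). Of the chromosome 7 group, 8 of 9 members were tested. At 2 h 6 were lower, where 0.697% of all genes were, and 0 higher. The members not called were Trim68 and Trim3, a gene of the NHL-repeat type that also lies apart from the run.

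**Figure D3:**
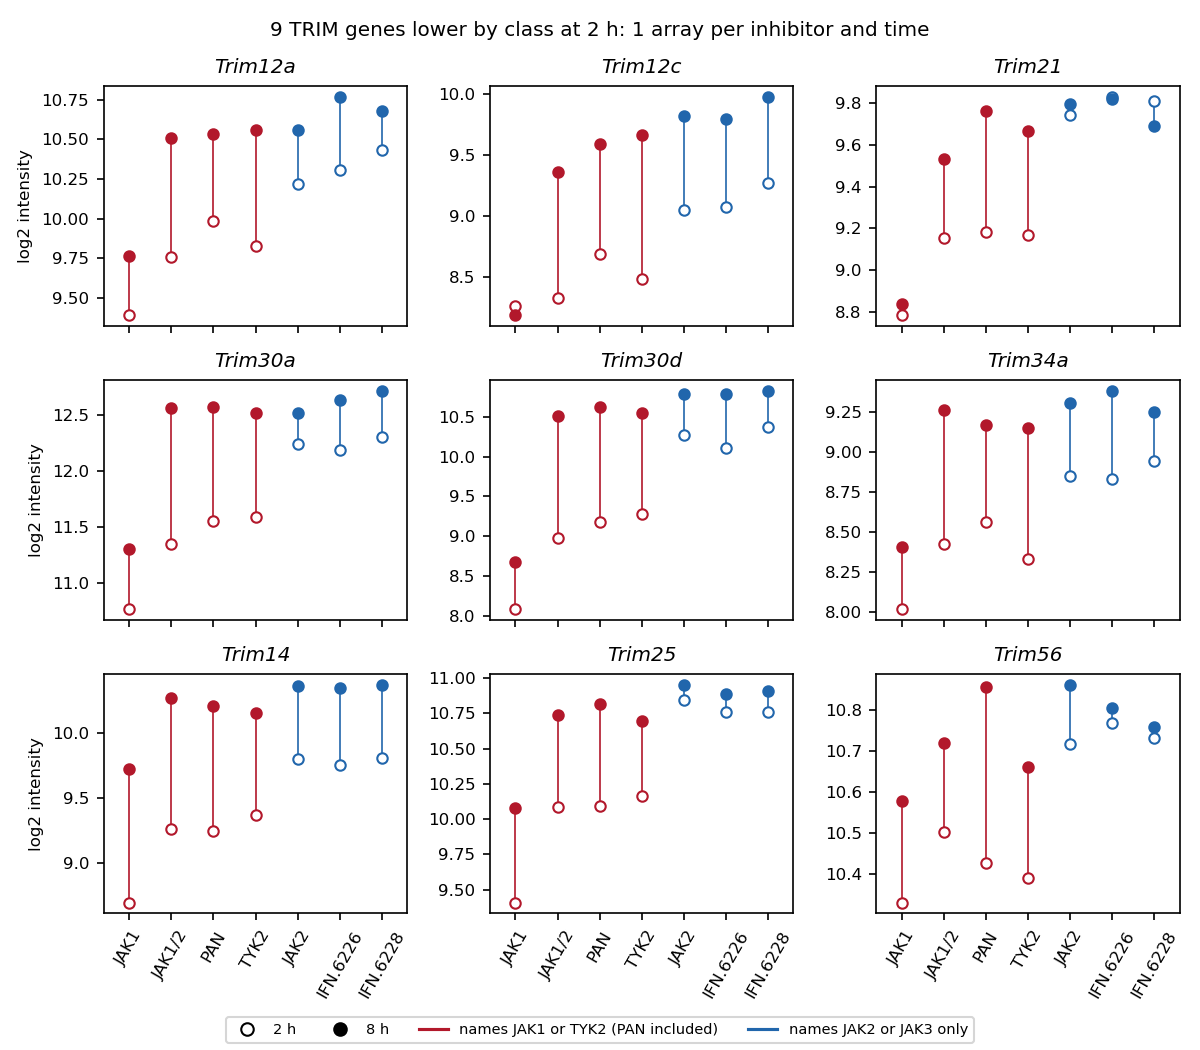
Log2 intensity of the 9 TRIM genes lower by class at 2 h, with 1 point per array, open at 2 h and filled at 8 h, joined within an inhibitor. Red inhibitors name JAK1 or TYK2 and blue ones name JAK2 or JAK3 only, and each panel has its own scale. In each gene the JAK1 inhibitor has the lowest value at both times. At 8 h it is the lowest in 23 of all 37 tested TRIM genes, these 9 included.

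Among the genes of interferon and RNA sensing, 5 of 7 were tested. Trim14, Trim25 and Trim56 were lower at 2 h, where 0.697% of all genes were. TRIM25 attaches ubiquitin to the RNA sensor RIG-I, encoded by Ddx58. Trim25 (probe set 10380260) read 9.41 with JAK1, 10.09 with JAK1/2, 10.09 with PAN and 10.16 with TYK2 at 2 h, and 10.85, 10.76 and 10.76 with JAK2, IFN.6226 and IFN.6228. The difference was -0.85 (SE 0.14, adjusted p = 0.0116). At 8 h it read 10.08 with JAK1, 10.74 with JAK1/2, 10.81 with PAN and 10.70 with TYK2, and 10.95, 10.89 and 10.91 with the others. The classes did not overlap at either time, and the gap was narrower at 8 h.

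TRIM14 is a mitochondrial adaptor of antiviral signalling that lacks the RING. Trim14 (probe set 10512766) read 8.70 with JAK1, 9.26 with JAK1/2, 9.25 with PAN and 9.37 with TYK2 at 2 h, and 9.80, 9.75 and 9.81 with JAK2, IFN.6226 and IFN.6228. The difference was -0.64 (SE 0.13, adjusted p = 0.0338). At 8 h it read 9.72 with JAK1, 10.26 with JAK1/2, 10.20 with PAN and 10.15 with TYK2, and 10.36, 10.34 and 10.37 with the others. The second class was tight at both times (SD 0.03 at 2 h and 0.01 at 8 h, n = 3).

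Trim56 (probe set 10534679), an E3 ligase linked to antiviral signalling, moved least among the 9. It read 10.33 with JAK1, 10.50 with JAK1/2, 10.43 with PAN and 10.39 with TYK2 at 2 h, and 10.72, 10.77 and 10.73 with JAK2, IFN.6226 and IFN.6228. The difference was -0.32 (SE 0.06, adjusted p = 0.0167), or 1.25-fold. At 8 h it read 10.58, 10.72, 10.85 and 10.66 with JAK1, JAK1/2, PAN and TYK2, and 10.86, 10.80 and 10.76 with the others, and PAN lay within the second class.

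Trim26 (probe set 10445033), a gene of the MHC region that acts on IRF3, did not pass the test at 2 h although its classes were apart. It read 7.67 with JAK1, 7.78 with JAK1/2, 7.64 with PAN and 7.91 with TYK2, against 8.04, 8.08 and 8.04 with JAK2, IFN.6226 and IFN.6228 (difference -0.31, SE 0.08, adjusted p = 0.155). At 8 h it read 7.55 with JAK1, 8.09 with JAK1/2, 8.11 with PAN and 8.26 with TYK2, and 8.34, 8.20 and 8.18 with the others. TYK2 then lay within the second class.

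The remaining TRIM types held no gene called at 2 h. These were the TIF1 chromatin regulators (3 of 4 tested), the NHL-repeat proteins (3 of 4) and the microtubule-associated COS-box proteins (3 of 7). The rest were a muscle group (1 of 4), the MHC region (3 of 7) and 14 of 22 other members. Some genes belong to more than 1 type. Trim28 (probe set 10550076), the TIF1 co-repressor of KRAB zinc-finger proteins, read 10.88 with JAK1, 10.95 with JAK1/2, 10.94 with PAN and 11.13 with TYK2 at 2 h, and 10.84, 10.98 and 11.04 with JAK2, IFN.6226 and IFN.6228. The classes overlapped, with a difference of 0.02 (SE 0.07, adjusted p = 0.995). At 8 h all 7 values of Trim28 lay between 10.71 and 10.86.

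The call for Trim21 at 2 h held in every alternative that was run, while the count for the family moved with the arrays and settings used. It fell to 1 gene without IFN.6228, 2 without JAK2 and 4 without IFN.6226, to 2 with both JAK3 inhibitors averaged and to 4 with robust moderation, and all 9 differences kept their sign in these.

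The inhibitors of the first class were not alike. Relative to the mean of the JAK2 and JAK3 inhibitors at 2 h, the median over the 8 tested genes of the chromosome 7 group was -0.90 with JAK1, -0.60 with JAK1/2, -0.59 with TYK2 and -0.39 with PAN. At 8 h these medians were -0.92 with JAK1, -0.11 with JAK1/2, -0.11 with TYK2 and -0.13 with PAN. The 5 genes of interferon and RNA sensing had medians of -0.41, -0.28, -0.35 and -0.42 at 2 h, and -0.63, -0.09, -0.15 and -0.10 at 8 h, in the order JAK1, JAK1/2, TYK2 and PAN. Over the other 24 tested TRIM genes every such median lay between -0.10 and 0.02. The medians of JAK1/2, TYK2 and PAN were thus nearer to 0 at 8 h than at 2 h in both gene groups, and those of JAK1 were not. Each inhibitor has 1 array per time here, and the 8 h JAK1 array is the 1 that stood apart. Members differed within the second group: with JAK1, Trim25 went from -1.38 to -0.84, Trim14 from -1.09 to -0.63 and Trim56 from -0.41 to -0.23, while Trim26 went from -0.39 to -0.70 and Trim65 from 0.06 to 0.20.

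At 8 h, 0 of 37 TRIM genes were called between the classes by limma, and the share of all genes called was 0 as well. Without the 8 h JAK1 array the count of TRIM genes was 0 too. An unadjusted p under 0.05 was found for 9 of 37, of which 8 were lower and 1 higher in the first class, and for 15.6% of all genes (1838). The classes did not overlap in 8 TRIM genes that were lower, where 13.7% of all genes did the same, and in 1 that was higher (Trim71, named after its value was seen), against 5.52% of all genes. The median difference was -0.11 over the TRIM genes and -0.08 over all genes. The smallest p-values belonged to Trim23, which carries an ARF GTPase domain (-0.38, SE 0.13), Trim59 (-0.30, SE 0.11) and Trim12c (-0.66, SE 0.27), each with an adjusted p of 0.308. Without the JAK1 array these were -0.27, -0.22 and -0.33 (adjusted p = 0.341, 0.341 and 0.339). Trim30d had -0.71 (SE 0.37, adjusted p = 0.328), and without that array -0.24 (SE 0.06, adjusted p = 0.309).

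The change from 2 h to 8 h was larger in the JAK1 or TYK2 class for Trim25, the single TRIM gene of 37 that passed the test of this difference; 0.102% of all genes (12) passed in the same direction. Trim25 rose by 0.67 with JAK1, 0.65 with JAK1/2, 0.72 with PAN and 0.54 with TYK2, and by 0.11, 0.13 and 0.15 with JAK2, IFN.6226 and IFN.6228. The difference of the mean changes was 0.52 (SE 0.09, adjusted p = 0.0455). The median of this difference was 0.03 over the 37 TRIM genes and -0.09 over all genes. In the second class the 2 h level of Trim25 was thus at most 0.1544 below that at 8 h. Trim30a (0.54, SE 0.12, adjusted p = 0.262), Trim30d (0.66, SE 0.18, adjusted p = 0.475), Trim21 (0.40, SE 0.13, adjusted p = 0.479) and Trim14 (0.37, SE 0.10, adjusted p = 0.479) did not pass. Without the 8 h array of the JAK1 inhibitor, 4 passed: Trim25 (0.51), Trim30a (0.67), Trim30d (0.87) and Trim21 (0.51). Since a change needs both times, this takes the JAK1 inhibitor out of the test altogether. The share of all genes that passed in that setting is not given here. The call for Trim25 was lost under several settings, among them median centring (adjusted p = 0.25) and leaving out any inhibitor other than JAK1 (adjusted p = 0.0723 to 0.394).

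Most TRIM genes changed with time. In the fit of inhibitor and time, 17 of 37 were higher at 8 h, where 21.4% of all genes were, and 7 were lower, where 28.2% of all genes were; with median centring 11 were higher and 7 lower. The median change was 0.16 over the TRIM genes and 0.02 over all genes. Of the 17, 9 rose in all 7 inhibitors, and of the 7, 4 fell in all 7. The 8 tested genes of the chromosome 7 group gave 6 rises and 0 falls, and all 5 of interferon and RNA sensing rose. Without the 8 h JAK1 array 24 TRIM genes were called, 23 of them among the 24 called with it.

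The 5 largest rises were those of Trim30d (0.93, SE 0.12, adjusted p = 2.76e-05), Trim14 (0.78, SE 0.07, adjusted p = 4.93e-07), Trim12c (0.75, SE 0.11, adjusted p = 6.38e-05), Trim30a (0.69, SE 0.09, adjusted p = 3.25e-05) and Trim34a (0.57, SE 0.07, adjusted p = 1.53e-05). Trim30d rose by 1.27 to 1.54 with JAK1/2, PAN and TYK2, by 0.58 with JAK1 and by 0.46 to 0.68 in the second class. Trim12c rose by 0.71 to 1.18 in 6 inhibitors and changed by -0.071 with JAK1. Trim14 rose in all 7, by 0.56 to 1.03. Without the 8 h JAK1 array the 5 rises were 0.98, 0.74, 0.88, 0.71 and 0.60, in the order above. Trim12a (0.49), Trim25 (0.42), Trim26 (0.23) and Trim56 (0.20) also rose, and Trim21 did not pass (0.20, SE 0.08, adjusted p = 0.0536) but did without the 8 h JAK1 array (0.23, adjusted p = 0.0289).

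**Figure D4:**
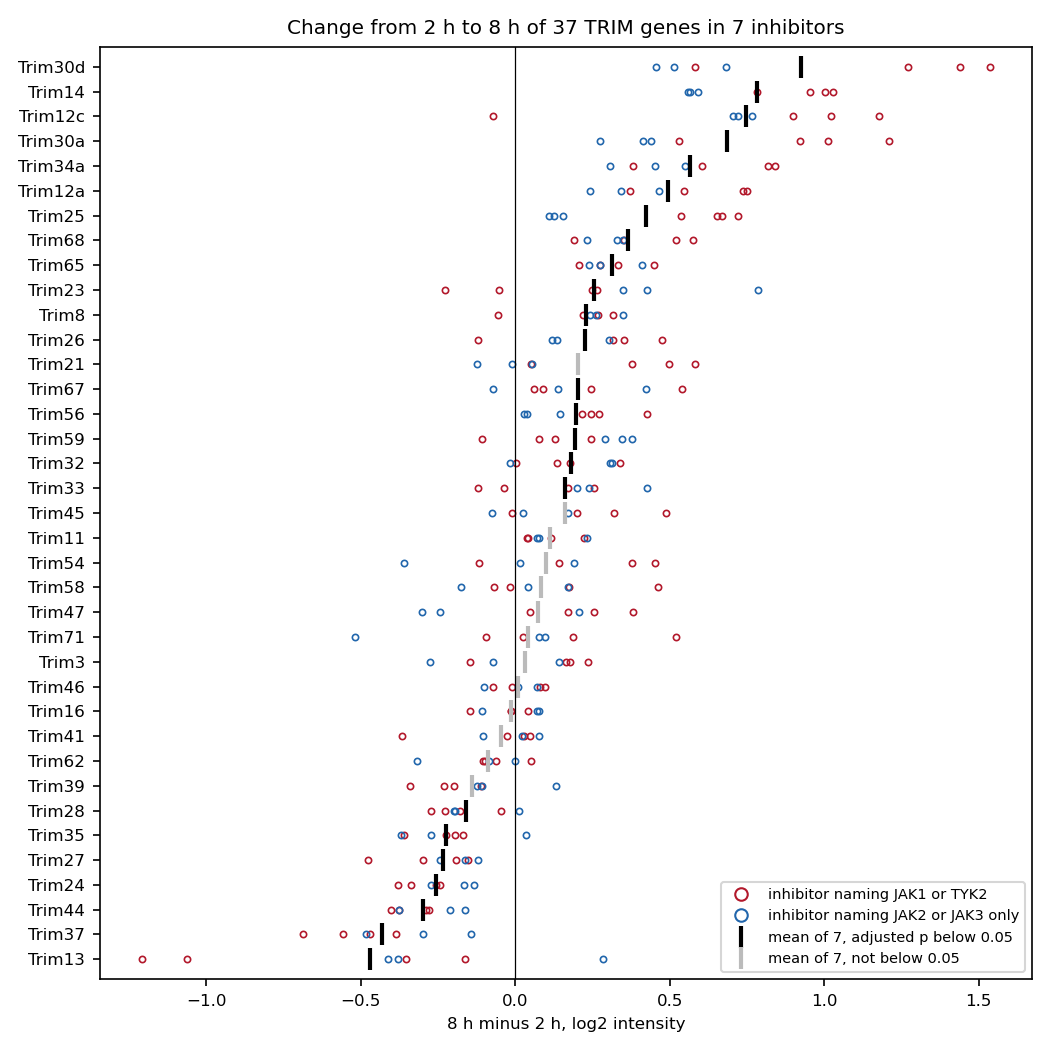
Change in log2 intensity from 2 h to 8 h for 37 TRIM genes, with 1 circle per inhibitor (red, names JAK1 or TYK2; blue, JAK2 or JAK3 only) and a bar at the mean of 7, black where the limma adjusted p is below 0.05. The antiviral genes lead the rises, from 0.93 for Trim30d, and Trim13 (-0.47) leads the falls with the widest spread among inhibitors.

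The 5 largest falls were those of Trim13 (-0.47, SE 0.14, adjusted p = 0.0114), an E3 ligase of the endoplasmic reticulum, Trim37 (-0.43, SE 0.07, adjusted p = 1e-04), a regulator of centrosome number, Trim44 (-0.30, SE 0.06), Trim24 of the TIF1 type (-0.26, SE 0.05) and Trim27 (-0.24, SE 0.05). Trim37, Trim44, Trim24 and Trim27 fell in all 7 inhibitors. Without the 8 h JAK1 array the 5 falls were -0.35, -0.39, -0.28, -0.26 and -0.20, in the order above. Trim13 did not behave alike in all: it read 8.53 at 2 h and 7.32 at 8 h with JAK1, and 8.33 and 7.27 with JAK1/2. With PAN it went from 8.10 to 7.74, with TYK2 from 8.03 to 7.87, with IFN.6226 from 8.16 to 7.78 and with IFN.6228 from 8.25 to 7.84. With JAK2 it went the other way, from 7.78 to 8.06. The difference of the change between classes did not pass for Trim13 (-0.53, SE 0.24, adjusted p = 0.479). Trim28 fell by 0.16 (SE 0.05, adjusted p = 0.0106), while its TIF1 relative Trim33 rose by 0.16 (SE 0.06, adjusted p = 0.0457); Trim33 and the single values of Trim13 were picked after being seen. All 4 CD4 markers and all 3 B cell markers tested were also higher at 8 h, the B cell list averaging 8.39 to 8.61 at 2 h and 8.83 to 9.14 at 8 h, and the part of this in the TRIM changes was not tested.

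Set against the other 6 inhibitors over both times, the JAK1 inhibitor had 10 of 37 TRIM genes lower and 0 higher, where 6.81% of all genes were lower; with quantile normalization 10 were lower and 2 higher. The 3 with the smallest p were Trim30d (-1.81, SE 0.18, adjusted p = 3.57e-05), Trim30a (-1.19, SE 0.13, adjusted p = 0.000118) and Trim12a (-0.77, SE 0.09, adjusted p = 0.000205). The other 7, listed because the count turns on them, were Trim12c (-1.03), Trim25 (-0.90), Trim21 (-0.78), Trim34a (-0.74), Trim14 (-0.70), Trim26 (-0.45) and Trim44 (-0.29). Without the 8 h array of this inhibitor, which stands apart, the contrast rests on its single 2 h array, so only differences are given. Trim30d was then at -1.61, Trim12c at -0.55, Trim26 at -0.25 and Trim44 at -0.23. On the 8 h JAK1 array the muscle list averaged 7.05, against 6.26 to 6.61 on the 8 h arrays of 5 other inhibitors and 7.16 with JAK1/2. In the contrast with both JAK1 arrays Ctss, 1 of 2 macrophage or dendritic cell markers tested, was lower (-0.56, adjusted p = 0.000995). Lyz2 was at 0.38 (adjusted p = 0.242). Gzma, the single NK cell marker tested, was lower (-0.53, adjusted p = 0.0497). The part of these markers in the TRIM differences was not tested.

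No TRIM gene passed for any of the other 6 inhibitors. This was 0 of 37 with JAK2, where 0.0765% of all genes passed, and 0 with JAK1/2, where 0.0085% did. With PAN, TYK2, IFN.6226 and IFN.6228 it was 0 of 37 where 0% of all genes passed. At an unadjusted p under 0.05 limma gave 8 genes with JAK2, 10 with IFN.6226, 9 with IFN.6228, 1 with JAK1/2, 1 with TYK2 and 0 with PAN. Over all genes the shares were 4.65%, 3.19%, 6.90%, 5.22%, 4.84% and 0.323% in that order, so JAK1/2 and TYK2 had no more TRIM genes than that share gives. Trim30d illustrates the sizes, chosen for its range: 0.69 with JAK2, 0.61 with IFN.6226 and 0.78 with IFN.6228 (SE 0.18 each, adjusted p = 0.19, 0.692 and 0.319), and -0.22 with JAK1/2, -0.03 with PAN and -0.02 with TYK2. Each of these contrasts includes the low JAK1 arrays among the other 6.

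Genes around the family gave the following counts. Of 7 tested genes for TRIM-type proteins under other names, Pml, which builds nuclear bodies, was lower in the JAK1 or TYK2 class at 2 h (-0.79, SE 0.12, adjusted p = 0.00636) and rose with time (0.64), and Mid1, a microtubule-bound ligase, fell with time (-0.66). Of 15 tested genes for RNA sensors, their adaptors and enzymes that act on them, 3 were lower at 2 h, where 0.697% of all genes were, and 0 higher: Ddx58, the substrate of TRIM25 (-0.90, SE 0.10, adjusted p = 0.00108), Ifih1, the sensor MDA5 (-1.21, SE 0.15, adjusted p = 0.00176), and Dhx58, their regulator LGP2 (-1.50, SE 0.22, adjusted p = 0.00442). Irf7 had a difference of -1.50 at 2 h and did not pass (SE 0.33, adjusted p = 0.0693). In the difference of the change between classes, 2 of the 15 passed, where 0.102% of all genes did. These were Dhx58 (0.86, adjusted p = 0.0306) and Irf7 (0.83, adjusted p = 0.0148), with the larger rise in the JAK1 or TYK2 class. With time 6 of the 15 rose and 5 fell (21.4% and 28.2% of all genes did). Irf7 (1.13) and the adaptor gene Mavs (0.41) were among the former and Traf6 (-0.46) and Tbk1 (-0.21) among the latter. Of 6 tested genes of the interferon alpha receptor and ISGF3, Stat2 was lower at 2 h (-1.12, SE 0.17, adjusted p = 0.00592), and 5 rose and 1 fell with time.

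Over the 14 arrays the median range of a TRIM gene was 0.61 log2 units, against 0.58 for all genes tested. A range of at least 1 was found in 9 of 37 TRIM genes and in 11.1% of all genes (1307). The 22 genes under the level for testing had ranges of 0.27 to 0.82, except Trim30e-ps1, a pseudogene of the Trim30 group (1.31), singled out after its value was seen. It read 4.39 to 4.90 in the JAK1 or TYK2 class and 5.11 to 5.25 in the second class at 2 h, and was not tested.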

How the data were processed

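RNA was read on 14 arrays, 1 for each of 7 inhibitors at 2 h and 8 h. The deposited values are 1 linear intensity per probe set and array (4.78 to 22879), made by the authors with Affymetrix Power Tools and RMA, per the submitters' processing notes, which give no versions; filters and the arrays normalized together are not given in the sources used here. Groups came from sample titles and labels. RMA can leave shifts between arrays that differ broadly.

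Intensities were put on the log2 scale without offset. Of 24922 probe sets, 21425 carried 1 symbol, 1399 several and 2098 none, by the platform annotation; 21347 matched RefSeq names and 0 symbols changed. The brightest probe set stood for a gene, and 11761 genes at or above the 40th percentile (6.29) were tested. Levels of different probe sets were not compared.

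Fits used limma 3.58.1 in R 4.3.3 (lmFit, eBayes with trend, two-sided), with Benjamini-Hochberg adjustment over all genes and a threshold of 0.05. Classes were compared within a time and on each inhibitor's change (5 residual degrees of freedom); time and single inhibitors came from an additive fit (6 residual degrees of freedom), whose residual is interaction plus noise. The scripts were tested on simulated data. Plots used Python 3.11.15 and matplotlib 3.10.9. TRIM genes given by array are those called at 2 h or in the difference of change, and Trim21, Trim25, Trim30a, Trim34a, Trim12c, Trim14, Trim26, Trim56 and Trim28. Named besides were the 5 largest rises and falls, the 3 smallest p-values between classes at 8 h and up to 3 per inhibitor. Members and lists were chosen with earlier results of these data known. Alternatives covered normalization, filter, probe set choice, variance moderation, pairing by inhibitor and left-out arrays. An array's signal over background sets its precision, and the number of arrays limits it.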

Additional observations from a re-analysis of the deposited data

Results flagged for a closer look

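Among 33 groups of 4 or 7 values checked, 8 held a value set apart from its group by Dixon's criterion, which chance meets in about 1 of 20 groups, and all 8 belonged to the JAK1 inhibitor. Within the 4 inhibitors naming JAK1 or TYK2 at 2 h, these were Trim21 at 8.79 (the nearest other value was 9.15) and Trim25 at 9.41 (nearest 10.09). At 8 h they were Trim30d at 8.67 (nearest 10.51), Trim30a at 11.30 (nearest 12.51), Trim25 at 10.08 (nearest 10.70), Trim12a at 9.77 (nearest 10.51) and Trim34a at 8.40 (nearest 9.15). Among the 7 changes from 2 h to 8 h, that of Trim12c with JAK1 was -0.071, and the nearest was 0.71. These values share 2 arrays, so they are not independent of each other. The 8 h array also correlated least with the others, and the part of that in these values was not tested.

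The rise of Trim25 from 2 h to 8 h differed between the classes by 0.52, being larger in the JAK1 or TYK2 class by the test of the difference itself.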

How the results depend on the processing

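No called result changed direction in any alternative run. The sign changed in 12 values of named genes that had not passed, all class comparisons of Trim28 or differences of the change of Trim12c, Trim26 and Trim28, each under 0.07 in size as reported. The count of TRIM genes lower at 2 h (9) was 4 with robust moderation and 2 with the JAK3 inhibitors averaged, and ranged from 1 to 10 with 1 inhibitor left out; it was 6 with quantile normalization, cyclic loess or no intensity trend. The count for the difference of the change (1) was 0 with median centring, without a filter and without an intensity trend. It was also 0 with an offset of 50 before the log2 and with the JAK3 inhibitors averaged. It ranged from 0 to 4 with 1 inhibitor left out. It was 2 with cyclic loess and 4 without the 8 h JAK1 array, which drops that inhibitor from this test. Without that array the JAK2 and IFN.6228 contrasts rose from 0 to 1 TRIM gene each, and the JAK1/2 contrast ranged from 0 to 1 with 1 inhibitor left out. The cause of these moves was not tested, beyond the fewer arrays where arrays were left out. The count at 8 h was 0 throughout, that over time 18 to 25 and that for the JAK1 inhibitor 8 to 12. The last range includes a fit with only the 2 h array of that inhibitor. Of the values of named genes, 623 kept their side of the threshold, 35 lost it and 8 passed it newly when the processing changed, and 373, 36 and 8 did so when an inhibitor was left out. With 1 array per inhibitor and time, no test here measures the spread between cultures, and small differences of dim probe sets were not detectable.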
